A study of Ovis aries with 30 samples.

Results

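LOC114112617 and LOC114115287 are 2 genes without a name among the 28524 genes of a count table of newborn lamb tissues. They were selected by their identifiers because together they held most of the counts in brown adipose tissue (BAT), so the height of their share in BAT, and its distance from thyroid tissue, chose them and are described here without a test. Differences between treatments were no part of that choice and were tested. Their identity is not given by the table, and neither is in the RefSeq gene table used here, which holds an entry for 22708 of the 28524 genes. The libraries came from BAT around the kidneys and from the thyroid glands of 15 newborn Romney lambs. In the cold group, 6 lambs were kept at 4 °C for 2 days, and in the ambient temperature (AT) group, 6 lambs were kept at 20 to 22 °C for 2 days. The 3 control lambs were sampled about a day after birth, so that age and treatment changed together against the controls and only cold against AT compared lambs of one age. Each lamb gave 1 library per tissue, and messenger RNA was captured by its poly(A) tail. The study left 1 control lamb out of both tissues. It is named control 2 below, its values are given separately, and tests used controls 1 and 3 unless all 3 are named.

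Brown adipose tissue makes heat without shivering. Its cells are dense in mitochondria, and UCP1, the uncoupling protein of their inner membrane, lets protons return without making ATP. The respiratory chain that pumps those protons is built from subunits encoded in the nucleus and from others encoded in the mitochondrial genome, whose transcripts also carry poly(A) tails. The thyroid makes thyroid hormone on the protein thyroglobulin (TG).

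LOC114112617 lay on an unplaced sequence of the Rambouillet assembly Oar_rambouillet_v1.0 that held no other gene. It ran on the plus strand from base 7 to base 16988, with exons of 15060 and 1847 bases and a gap of 75 bases between them. LOC114115287 lay on chromosome 6, on the minus strand, from 32872448 to 32881568, with exons of 4550 and 4496 bases and also a gap of 75 bases. The chromosome number was read from the sequence's other genes, since 595 of its 601 genes with an entry in the RefSeq table are on chromosome 6 there. The nearest genes were STPG2, 1979465 bases before it, and PDHA2, 380591 bases after it, so LOC114115287 overlapped no other gene. The exons summed to 16907 and 9046 bases. None of the 13 protein genes of the mitochondrial genome had a row of that name in the count table. Multimapping reads were included in the counting, so the same reads may stand in both rows. Whether reads of mitochondrial transcripts were counted at either gene was not tested, since no read or genome sequence was used here.

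In BAT the pair took between 43.8% and 76.5% of all counts of a library, and over 50% in 13 of 15 libraries. Among cold lambs the share was lowest at 54.2%, with a median of 59.2%, and highest at 75.5%. Among AT lambs the lowest share was 43.8%, the median 62.6% and the highest 76.5%. Control 1 had 69.9%, control 3 had 49.8% and control 2 had 74.7%. The 3 groups overlapped over most of their ranges, and the spread lay between lambs of one group. LOC114112617 alone held a median of 44.5% of the counts over the 15 BAT libraries, and LOC114115287 held 17.3%. Both led every BAT library, by counts and by counts per kilobase of exon.

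In thyroid tissue the pair took between 5.18% and 14.9% of the counts in the 14 libraries the study used. The cold lambs had a lowest share of 5.95%, a median of 7.89% and a highest of 10.2%. The AT lambs had a lowest share of 8.54%, a median of 10.9% and a highest of 14.9%. Control 1 had 8.04% and control 3 had 5.18%. Control 2 had 27.8%, far above every other thyroid library. The median shares of the single genes were 6.95% for LOC114112617 and 2.13% for LOC114115287, behind TG at 8.05%. Within each lamb the BAT share was 2.69 to 10.4 times the thyroid share. The lowest of these multiples belonged to control 2.

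**Figure D1:**
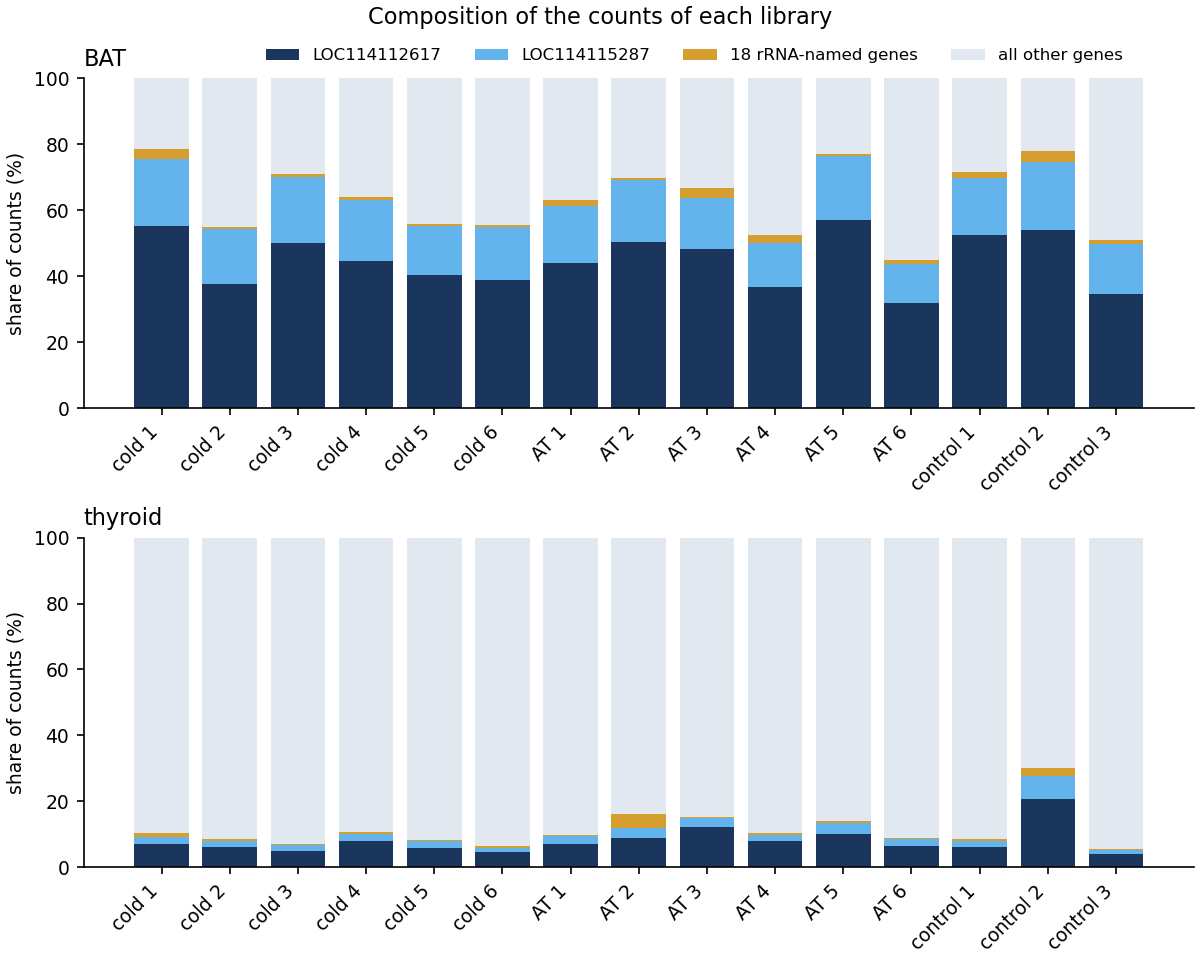
Share of each library's counts (%) held by LOC114112617, LOC114115287, the 18 rRNA-named genes and all other genes, for 15 BAT libraries (top) and 15 thyroid libraries (bottom). The pair fills 43.8% to 76.5% of the BAT bars, and in thyroid tissue control 2 stands apart at 27.8%.

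BAT libraries held 31556500 to 37025998 counts and thyroid libraries 25062784 to 30124871. Outside the pair and the 18 genes named as ribosomal RNA (rRNA), 7549807 to 17914448 counts were left in BAT and 17487687 to 26831631 in thyroid tissue. These are called other counts, and levels on that scale are in counts per 1000000 other counts (CPM). A share of counts had a 95% Wilson interval of at most 0.0175 percentage points to either side, which covers counting error only, so differences between lambs were much larger than counting error. Thyrocyte genes separated all BAT from all thyroid libraries. UCP1 was higher in BAT than in thyroid of the same lamb in every lamb, but its ranges overlapped across lambs. The sum of 10 thyrocyte genes was 38644 to 165998 CPM in thyroid tissue and 11.3 to 133 in BAT, and UCP1 was 20.0 to 5378 in BAT and 0.119 to 21.6 in thyroid tissue. The defining marker UCP1 was weakest in BAT of AT 6, at 20.0 CPM, and of AT 4, at 49.8, beside 21.6 in thyroid of control 2. The summed brown adipocyte genes were at 166 in BAT of AT 6 and 319 in BAT of AT 4, below the 464 in thyroid of control 2. Of the 9 brown adipocyte genes tested between the tissues, 7 were called as higher in BAT, beside 25% of all genes. EVA1A was called as lower, beside 14.3% of all genes, and its part in these sums was not tested. Because the samples are bulk tissue, fewer cells of a type and less RNA per cell cannot be told apart.

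No other gene came near the pair in BAT. The next by median share were LOC114112677 at 0.424%, LOC114112646 at 0.383%, the translation elongation factor EEF1A1 at 0.372%, and the rRNA-named genes LOC114112704 at 0.320% and LOC114112489 at 0.276%. LOC114112677 and LOC114112646 also have no RefSeq entry and lie on unplaced sequences. Per kilobase of exon, the median level in BAT was 26300 per 1000000 counts of the library for LOC114112617, 19124 for LOC114115287, 1475 for LOC114112489 and 779 for EEF1A1. In thyroid tissue the genes after the pair and TG included EEF1A1 at 0.672%, LOC101110773 at 0.395% and TPT1 at 0.282%. There the median level per kilobase was 9595 for TG, 4111 for LOC114112617, 2355 for LOC114115287 and 2353 for TPT1, so LOC114115287 and TPT1 stood at nearly the same median.

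Normalized counts, which are counts divided by a size factor from ACTB, RPL19 and HUWE1, were spread more widely in BAT than the shares. Over the 14 BAT libraries used, the share of LOC114112617 ran from 31.8% to 57.1%, and its normalized counts from 5604976 to 37973473. The size factors ran from 0.54 in cold 1 to 1.84 in AT 6. LOC114112617 had 17239686 ± 11422344 normalized counts in cold (SD, n = 6), 16814897 ± 8987925 in AT (SD, n = 6) and 16425609 ± 10848191 in control lambs (SD, n = 2). LOC114115287 had 6772937 ± 4127813 in cold, 5986147 ± 2973727 in AT and 5870466 ± 2916382 in control lambs, with the same n. The lowest library of either gene was AT 6, with 5604976 and 2125383. The highest was cold 1, with 37973473 and 14015639. Control 2 was not on this scale. With all 3 controls scaled together it was the highest, with 38132558 and 14556394 beside 36082738 and 13317787 in cold 1, and AT 6 was again the lowest.

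Neither gene was called in BAT by edgeR's quasi-likelihood test, where a call needs an adjusted p under 0.05 with |log2FC| ≥ 1. For cold against control the log2FC was 0.07 ± 0.62 (SE) for LOC114112617 and 0.21 ± 0.57 for LOC114115287, while 1.23% of the 14940 genes tested were called. For AT against control it was 0.03 ± 0.62 and 0.03 ± 0.57, where 6.07% were called. For cold against AT it was 0.04 ± 0.44 and 0.18 ± 0.40, where 0.281% were called. With all 3 controls the log2FC turned negative against the controls, to -0.45 ± 0.55 and -0.37 ± 0.52 for cold and to -0.50 ± 0.55 and -0.56 ± 0.52 for AT, still without a call. The share of the pair differed by 2.37 percentage points for cold against control, 0.952 for AT against control and 1.42 for cold against AT, with exact permutation p = 0.714, 0.929 and 0.833. The groups overlapped in all of these comparisons.

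**Figure D2:**
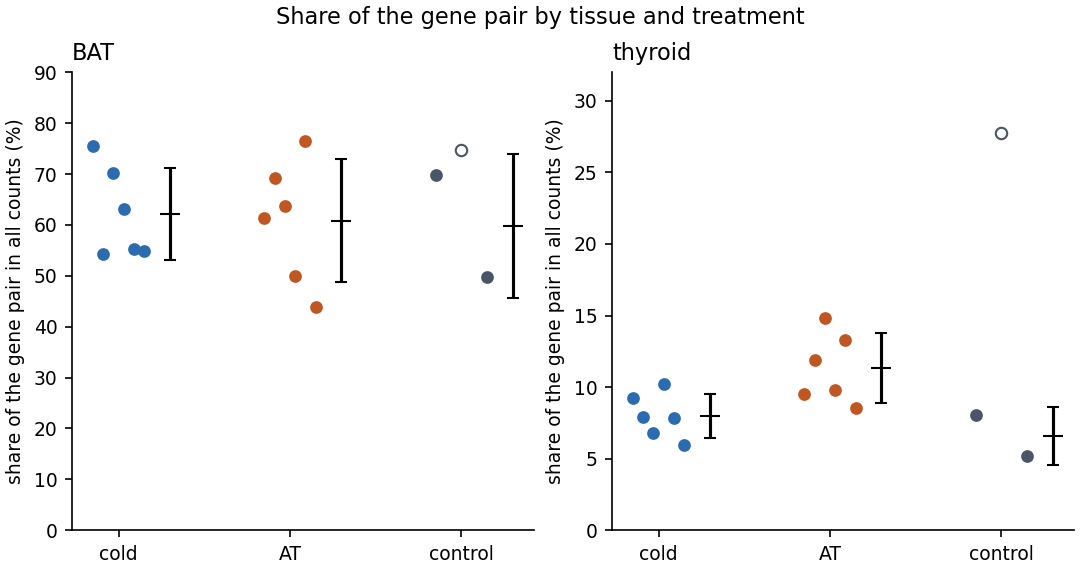
Share of the gene pair in all counts (%) of each library by treatment, in BAT (left, axis to 90) and thyroid tissue (right, axis to 32). Filled points are libraries used in the tests, the open point is control 2, and bars are mean ± SD of the filled points; the BAT groups overlap, and in thyroid tissue all 6 AT lambs lie above controls 1 and 3.

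In thyroid tissue the pair was lower in the cold than in the AT lambs at the unadjusted level only. When control 2 entered the fit, the log2FC hardly moved but edgeR's unadjusted p rose above 0.05. The test of the share in this comparison uses no control library. LOC114112617 had 1566416 ± 376032 normalized counts in cold (SD, n = 6), 2544538 ± 1230524 in AT (SD, n = 6) and 1675145 ± 292147 in control lambs (SD, n = 2). LOC114115287 had 493864 ± 79545, 730934 ± 233472 and 543116 ± 93173 in the same order. For cold against AT, the log2FC was -0.70 ± 0.25 for LOC114112617 (unadjusted p = 0.0154, adjusted p = 0.900 by edgeR) and -0.57 ± 0.19 for LOC114115287 (unadjusted p = 0.00897, adjusted p = 0.900 by edgeR). In this comparison 0.0% of the 16215 genes were called, 887 had an unadjusted p under 0.05, and DESeq2's Wald test called 4 genes, neither member among them. With all 3 controls in the fit the log2FC was nearly the same, at -0.70 and -0.57, but the unadjusted p was 0.0818 and 0.125 by edgeR. The share of the pair was 7.98% ± 1.55 in cold and 11.3% ± 2.46 in AT lambs (SD, n = 6 each), a difference of -3.34 percentage points (2-sided exact permutation p = 0.0216, adjusted p = 0.130 over 6 comparisons). Of the cold lambs, cold 1 and cold 4 lay within the AT range, and the others lay below all AT lambs.

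Markers of skeletal muscle also differed between these libraries. The summed level of the 9 muscle genes in the table was 101486 CPM in thyroid of AT 3, 11315 in control 1, 166 in cold 4, 147 in control 2, 48.7 in AT 2 and 4.36 to 14.2 in the other 10 thyroid libraries. AT 3 was also the highest of the AT lambs for the pair and the lowest thyroid library for TG, at 35367 CPM. Without AT 3 the log2FC for cold against AT was -0.41 ± 0.18 for LOC114112617 (edgeR unadjusted p = 0.0446, adjusted p = 0.950) and -0.41 ± 0.17 for LOC114115287 (edgeR unadjusted p = 0.0274, adjusted p = 0.950). The difference in share was then -2.63 percentage points (exact permutation p = 0.0411, adjusted p = 0.247). The part of muscle tissue in these values was not tested, in AT 3 or in the other lambs.

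Against the thyroid controls the result depended on control 2. With controls 1 and 3, the log2FC for cold was -0.10 ± 0.36 and -0.14 ± 0.26 for LOC114112617 and LOC114115287, turning to 0.13 to 0.30 under the 4 other scalings, and 7.99% of genes were called. The median log2FC of all genes in that comparison was -0.28. For AT against control it was 0.60 ± 0.37 and 0.43 ± 0.27, with adjusted p = 0.258 and 0.272 by edgeR, and 7.75% of genes were called. All 6 AT lambs had a higher share of the pair than controls 1 and 3, by 4.71 percentage points in the mean (exact permutation p = 0.0714, adjusted p = 0.214; the smallest p that 2 against 6 allows is 0.0357). With all 3 controls, the log2FC for cold became -1.29 ± 0.45 for LOC114112617, which was not called, and -1.42 ± 0.42 for LOC114115287, which was called by edgeR with adjusted p = 0.0295 while 8.47% of all genes were called. For AT it became -0.59 ± 0.45 and -0.85 ± 0.42, not called. Control 2 had 7899615 and 2783034 normalized counts, against 1834501 and 593716 in control 1 and 1415695 and 460051 in control 3 on the same scale.

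Control 2 also stood apart in brown adipocyte genes. Their summed level was 464 CPM in its thyroid library and 49.0 to 99.5 in the other 14, and its UCP1 was 21.6 against at most 9.58. The sum includes EVA1A, which was called as lower in BAT than in thyroid tissue. Thyroid TG of control 2 was 56400.3 CPM, lower than in every other thyroid library but AT 3, at 35367. The lowest after these was 74942, in cold 5. The BAT library of control 2 had the highest UCP1 of all, at 5378. The part of fat tissue in the pair's share in this thyroid library was not tested.

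**Figure D3:**
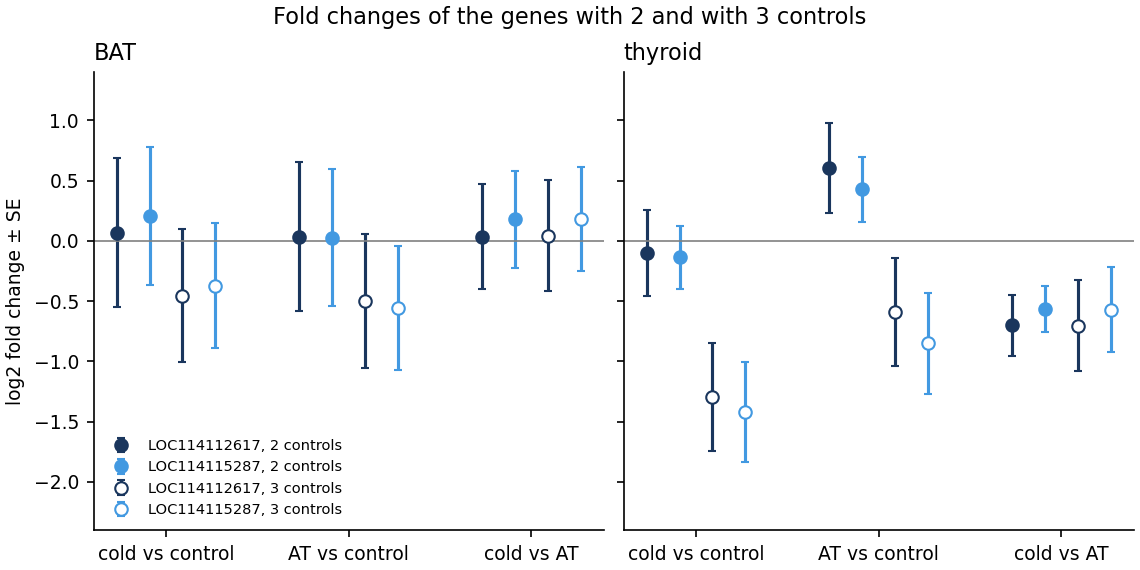
Log2 fold change ± SE of LOC114112617 and LOC114115287 in the 3 comparisons in BAT (left) and thyroid tissue (right), with controls 1 and 3 (filled) and with all 3 controls (open). The direction against the controls turns in BAT for both treatments and in thyroid tissue for AT when control 2 enters, while the log2 fold change of cold against AT hardly moves.

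Whether cold against AT differed between the tissues was tested in 1 fit of both tissues. The difference of log2FC, BAT minus thyroid, was 0.72 ± 0.53 for LOC114112617 and 0.72 ± 0.46 for LOC114115287, with edgeR unadjusted p = 0.193 and 0.129 and adjusted p = 0.816 and 0.766. Of the 17073 genes 0.0% were called, 1339 having an unadjusted p under 0.05, and TMM scaling called 6.

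The pair was 4.51 ± 0.38 (log2FC ± SE, LOC114112617) and 4.77 ± 0.33 (LOC114115287) higher in BAT than in thyroid tissue, a description since its level in BAT chose it. Here 39.3% of all genes were called, 25% (4269 of 17073) as higher and 14.3% as lower in BAT. The scaling weighed on these values. Scaled by total counts, the pair's differences were 2.79 and 3.06, and the median of all genes moved from 0.24 to -1.28. Scaled by the counts outside the pair, that median was -0.07. Of the genes called between the tissues, 63.6% were higher in BAT with the reference genes (6708 called), 9.54% with total counts (11440 called) and 50.4% with the counts outside the pair (6488 called). A difference of this kind also lay between libraries of one group, as shown by BAT of cold 1 and cold 2, chosen for their like UCP1 level. UCP1 was 841 CPM in cold 1 and 840 in cold 2, but 180 and 379 per 1000000 of all counts.

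The 2 genes kept a narrow count ratio. In BAT, LOC114112617 had 2.26 to 3.10 times the counts of LOC114115287, and per kilobase of exon 1.21 to 1.66 times. The cold lambs had a lowest ratio of 2.26 and a highest of 2.76, and the AT lambs 2.51 and 3.10. Control 1 had 3.04, control 3 had 2.30 and control 2 had 2.62. The groups overlapped, and the mean log2 ratio was 1.32 ± 0.11 in cold and 1.47 ± 0.11 in AT lambs (SD, n = 6 each; exact permutation p = 0.0519, adjusted p = 0.182 over 7 comparisons). For thyroid cold against AT the means were 1.65 ± 0.14 and 1.74 ± 0.25 (exact permutation p = 0.409, adjusted p = 0.893). None of the 6 comparisons between treatments passed after adjustment.

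Between the tissues the ratio differed. It was higher in thyroid than in BAT in 15 of 15 lambs, by 0.29 ± 0.20 on the log2 scale in the 14 lambs tested (SD; permutation p = 1.2e-04 over all sign changes, the smallest they can give; adjusted p = 8.5e-04). In thyroid tissue 12 of 15 libraries lay between 2.84 and 3.12. The others were AT 3 at 4.42, AT 4 at 3.92 and cold 4 at 3.78. AT 3 and cold 4 had 101486 and 166 CPM of muscle genes and AT 4 had 14.2. Control 1, with 11315, had a ratio of 3.09, AT 2, with 48.7, had 3.01 and control 2, with 147, had 2.84. The part of muscle tissue in the ratio was not tested. The counting error of a ratio was at most 0.376%, so the gaps between these ratios were not counting error. The ratio of control 2 was the lowest of the thyroid ratios, at 2.84, and its thyroid ratio exceeded its BAT ratio by 0.12 on the log2 scale.

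**Figure D4:**
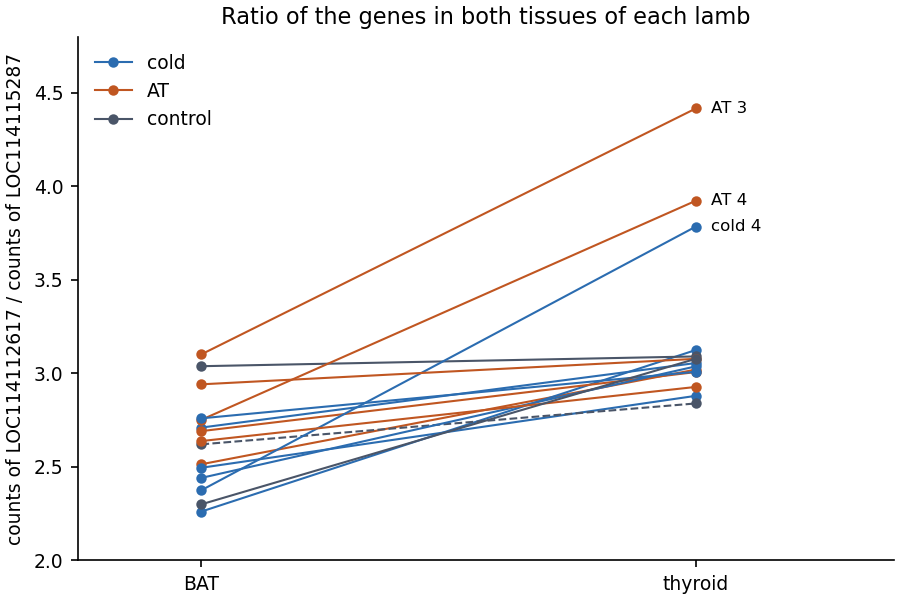
Counts of LOC114112617 divided by counts of LOC114115287 in BAT and thyroid tissue, with 1 line per lamb coloured by treatment and control 2 dashed; the axis starts at 2. Every line rises to thyroid, and AT 3, AT 4 and cold 4 end above the 12 thyroid libraries at 2.84 to 3.12.

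Nuclear genes of the respiratory chain were compared as a list, of which 61 of 84 were in the table (37 of complex I, 4 of complex II, 1 of complex III, 2 of complex IV and 17 of complex V). All 61 were tested, and the others were not analysed here. In BAT, 1 of 61 fell in cold against control and the same gene in AT against control, where 0.656% and 3.22% of all genes were called as lower. It was ATP5MC1, a membrane ring subunit of ATP synthase, with log2FC -1.19 ± 0.27 (edgeR adjusted p = 0.0410) and -1.10 ± 0.27 (edgeR adjusted p = 0.0221), calls that were lost under total count scaling. NDUFB4 and COX5A were called as lower with it when all 3 controls were used for cold against control, beside 2.16% of all genes. None was called in BAT for cold against AT, where 3 of 61 had a positive log2FC and the median was -0.23 beside -0.06 for all genes. The values furthest from 0 were -0.46 ± 0.24 for NDUFA5 and -0.41 ± 0.21 for NDUFC2 of complex I, -0.35 ± 0.24 for SDHA and -0.24 ± 0.22 for SDHB of complex II, -0.35 ± 0.25 for UQCRH of complex III, -0.40 ± 0.22 for NDUFA4 and -0.28 ± 0.23 for COX5A of complex IV, and -0.45 ± 0.23 for ATP5F1D and -0.38 ± 0.24 for ATP5F1E of ATP synthase. The pair's own log2FC in this comparison was 0.04 and 0.18.

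In thyroid tissue, 4 of 61 fell in cold against control, where 6.11% of all genes were called as lower. Of all genes called, 23.5% were higher there, and 57.5% to 69.8% under the 4 other scalings. These were NDUFA11 at -1.30 ± 0.37 (edgeR adjusted p = 0.0280) and NDUFB1 at -1.24 ± 0.39 (edgeR adjusted p = 0.0382) of complex I, SDHB of complex II at -1.15 ± 0.36 (edgeR adjusted p = 0.0408) and ATP5PF of ATP synthase at -1.12 ± 0.34 (edgeR adjusted p = 0.0333). The median of the list was -0.89, against -0.28 for all genes. With TMM, median-of-ratios, total count scaling or scaling to the counts outside the pair, alternatives added for the lists after the data had been seen, none of these 4 was called, the list's median lay at -0.42 to -0.56 and that of all genes at 0.02 to 0.15. Use of all 3 controls gave 2 called as lower, NDUFB1 and NDUFS7, beside 6.09% of all genes. None was called in AT against control, beside 7.75% of all genes. The list's median was -0.52 there and that of all genes -0.28. Under the 4 other scalings these lay at -0.20 to -0.32 and at 0.04 to 0.11. In cold against AT none of the list and 0.0% of all genes were called, with medians of -0.38 and 0.0042. AT 3, with 101486 CPM of muscle genes, had 9500 of the respiratory chain genes beside 3946 to 5194 in the other AT lambs. The median log2FC of the 8 muscle genes tested was -9.03 for cold against AT, and none of them was called. The summed muscle level had a median of 10.5 CPM in cold and 14.1 in AT lambs. The part of the muscle genes in the list's values was not tested. Between the tissues 22 of 61 were called as higher in BAT and 0 as lower, but scaled by total counts, with the pair included, 0 were called as higher and 19 as lower. Of all genes, 25% and 14.3% were called as higher and lower in the first case, and 6.39% and 60.6% in the second. Scaled by the counts outside the pair, 12 were called as higher and 0 as lower, beside 19.1% and 18.9% of all genes, so the share of higher calls was then near that of all genes. The list was led by NDUFA10 at 2.49 ± 0.27 and UQCRH at 2.15 ± 0.21 (log2FC ± SE). The median of the list was 0.82 with the reference genes, -0.69 with total counts and 0.55 with the counts outside the pair, beside 0.24, -1.28 and -0.07 for all genes. Of the 24 genes that copy, transcribe or process mitochondrial DNA and RNA, 1 was called as higher in BAT, SUPV3L1, an RNA helicase, at 1.01 ± 0.30, and the median was 0.19. With total counts 0 of the 24 were called as higher and 17 as lower, where 60.6% of all genes were called as lower.

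The genes for mitochondrial DNA and RNA did not pass in any BAT comparison between treatments. For cold against AT the largest values were -0.74 ± 0.44 for SUPV3L1 and -0.68 ± 0.19 for NRF1, a transcription factor for respiratory genes. In thyroid tissue 3 of 24 fell in cold against control, beside 6.11% of all genes: the transcription factor TFB2M at -1.17 ± 0.35 (edgeR adjusted p = 0.0333), MTERF3 at -1.09 ± 0.36 (edgeR adjusted p = 0.0487) and LRPPRC, which stabilizes mitochondrial messenger RNA, at -1.06 ± 0.34 (edgeR adjusted p = 0.0411). Of the brown adipocyte genes, none of 7 tested was called in BAT in any of the 3 comparisons, and for cold against AT the largest values were 0.80 ± 0.68 for UCP1 and 0.78 ± 0.38 for its coactivator PPARGC1A. In thyroid tissue PPARGC1A fell in cold against control, at -1.23 ± 0.23 (edgeR adjusted p = 0.00441). For AT against control, where 5.94% of all genes were called as lower, PPARGC1A was at -1.20 ± 0.23 (edgeR adjusted p = 0.00411) and UCP1 at -3.26 ± 1.07 (edgeR adjusted p = 0.0455), both lower. Thyroid UCP1 rests on low counts, with 3 to 178 in cold lambs, 7 to 68 in AT lambs and 158 to 378 in the 3 controls. Under the other scalings none of these thyroid genes was called. When all 3 controls were used, UCP1 and PPARGC1A were called as lower and PRDM16 as higher in BAT for AT against control, where 2.99% of all genes were called as lower and 5.74% as higher. LRPPRC was then called as lower in BAT for both treatments. In thyroid tissue, cold against control then called TFB2M, MTERF3 and SUPV3L1 of the 24 and UCP1, DIO2 and PPARGC1A of the brown adipocyte genes as lower, beside 6.09% of all genes. AT against control called MTERF3, SUPV3L1, UCP1 and PPARGC1A as lower, beside 4.91% of all genes.

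The pair and UCP1 put the BAT libraries in different orders. In BAT, UCP1 CPM was lowest at 274, with a median of 738 and a highest of 850 among cold lambs. Among AT lambs it was lowest at 20.0, with a median of 274 and a highest of 1124. Controls 1 and 3 had 1724 and 1665. AT 5, with the highest share of the pair in BAT at 76.5%, had a UCP1 level of 287, while control 3, with 49.8%, had 1665. AT 6 was lowest in both.

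Across the 14 BAT libraries, the log2 level of the pair per other count was set against 4 measures on the same scale, which all share the library and the denominator. For the respiratory chain genes Pearson's r was 0.53 (permutation p = 0.0491) and Spearman's rho 0.49 (permutation p = 0.0748), with an adjusted p of 0.164 over 8 relations. Without the 2 libraries farthest from the median of the respiratory chain genes r was 0.42. Within the 6 AT lambs r was 0.88 (exact permutation p = 0.0181, adjusted p = 0.144) and rho 0.66 (exact permutation p = 0.175). Within the 6 cold lambs r was -0.26 (exact permutation p = 0.625), so the relation did not hold within both groups. For UCP1, r was 0.48 and rho 0.36 (permutation p = 0.0819 and 0.201, adjusted p = 0.164), and without the 2 farthest libraries r was -0.07. For the rRNA-named genes r was 0.49 and rho 0.45 (permutation p = 0.0744 and 0.103, adjusted p = 0.164). Within cold lambs r was 0.94 (exact permutation p = 0.00833, adjusted p = 0.0667) and rho 0.77 (exact permutation p = 0.103). Cold 1 was the highest cold lamb in both the pair's share, at 75.5%, and the rRNA-named share, at 3.11%. Within AT lambs r was -0.03 (exact permutation p = 0.947). For the mitochondrial DNA and RNA genes r was 0.03 and rho 0.07 (permutation p = 0.921 and 0.807).

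In thyroid tissue r was 0.09 for the respiratory chain genes, -0.14 for UCP1, 0.49 for the rRNA-named genes and -0.22 for the mitochondrial DNA and RNA genes, with rho -0.11, 0.08, 0.63 and -0.04. The permutation p of r was 0.763, 0.639, 0.0760 and 0.453, and that of rho 0.704, 0.798, 0.0190 and 0.904. None passed after adjustment. For the respiratory chain genes r turned to -0.35 without the 2 farthest libraries. The rRNA-named genes took 0.501% to 3.48% of the counts in BAT and 0.324% to 4.34% in thyroid tissue. The thyroid maximum was AT 2, whose pair share was 11.9%.

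**Figure D5:**
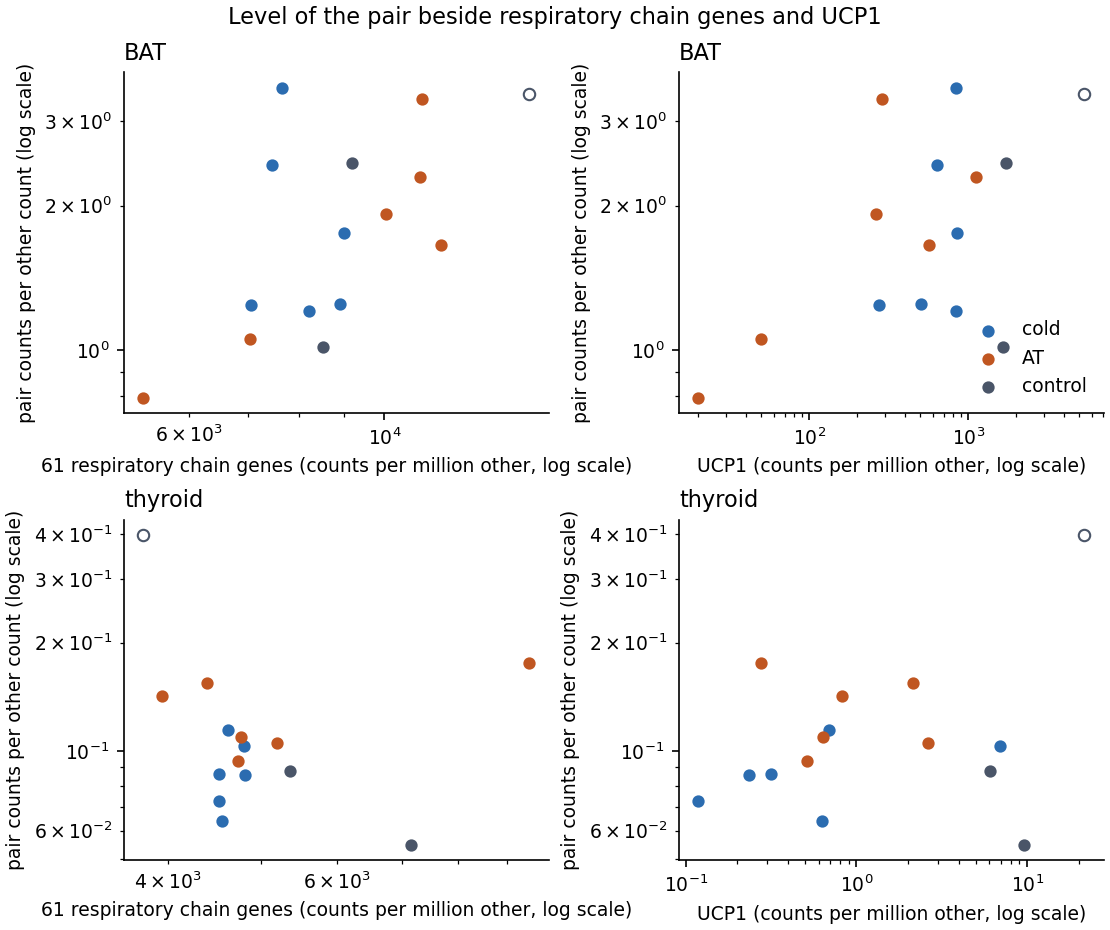
Counts of the pair per other count (log scale) against the summed level of 61 respiratory chain genes (left) and UCP1 (right) in CPM (log scale), for BAT (top) and thyroid tissue (bottom), coloured by treatment. The open point is control 2; in BAT, AT 6 is lowest on every axis and AT 5 combines a high pair level with a UCP1 level of 287, and in thyroid tissue AT 3 stands to the right at 9500 respiratory chain counts.

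The level of the pair in BAT and in thyroid of the same lamb was compared after the values had been seen. Over 14 lambs r was 0.45 and rho 0.39 (permutation p = 0.102 and 0.171, adjusted p = 0.205 over 2 relations). Within the AT lambs r was 0.80 (exact permutation p = 0.0667) and within the cold lambs 0.37 (exact permutation p = 0.492). The ratio of the 2 genes in BAT and thyroid of the same lamb had r = 0.31 and rho = 0.15 (permutation p = 0.290 and 0.617, adjusted p = 0.290). Per other count, the pair was 8.49 to 34.3 times as high in BAT as in thyroid of the same lamb, with a median of 15.8.

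The genes most like the pair were sought among the genes tested, by Pearson's r of log2 normalized counts over 14 libraries, as a description. In BAT these were LOC114116484 at 0.97, LOC114110277 at 0.90, LOC105609508 at 0.90, TBC1D20 at 0.89 and SLC8B1, a mitochondrial sodium-calcium exchanger, at 0.89. The median over all genes was 0.19. All values share the size factors, and their part in these r and in this median was not tested. Scaled by other counts, the r of these genes was 0.96, 0.88, 0.86, 0.79 and 0.85, over a median of -0.15. There the pair and each gene share the other counts as denominator, so this is no independent check. SLC8B1 had 630 to 950 counts, while other counts ran from 7885307 to 17914448 over these libraries. The part of the shared denominator in these r was not tested. LOC114116484 had only 24 to 43 counts and LOC114110277 28 to 96, and neither has a RefSeq entry. UCP1 had 0.50, place 2225 of 14938 genes. In thyroid tissue the highest were HOXA4 and MPI at 0.92 each, PRUNE2 at 0.92, DMPK at 0.91 and DPF3 at 0.91, over a median of 0.00 for all genes. Scaled by other counts, again a shared denominator, these were 0.82, 0.79, 0.79, 0.90 and 0.74, over a median of -0.07. Here UCP1 had -0.01. In the order named, the 5 thyroid genes had median counts of 80.5, 86, 70, 4673 and 29.5. Their highest counts were 599, 444, 2059, 11976 and 228, and the part of single libraries in these r was not tested.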

How the data were processed

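RNA of BAT and thyroid tissue from 15 lambs was extracted with TRIzol, captured with oligo(dT) beads and sequenced in read pairs on the BGISEQ-500 platform. The authors trimmed reads with Trimmomatic 0.39, aligned them with STAR 2.7.7a to Oar_rambouillet_v1.0 and counted them per gene with featureCounts (Subread 2.0.0), multimapping reads included. Whether counting used the strand is not given in the sources used here, so overlapping antisense genes cannot be told apart. The deposited values are raw counts per gene and library, without normalization.

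Here, genes reaching 10 reads in 10 or more libraries of a tissue (of the 30 for both tissues) were tested per tissue with edgeR 4.0.16 (R 4.3.3; quasi-likelihood, robust), with HUWE1, RPL19 and ACTB as reference genes for the size factors (DESeq2 1.42.0) and Benjamini-Hochberg adjustment; a call needed |log2FC| ≥ 1 and an adjusted p under 0.05. The step was tested on simulated data. Shares and ratios were tested by 2-sided exact permutation of group labels, the ratio between tissues by sign changes within lambs, and correlations by 100000 permutations, or exactly within groups of 6. Genes were named by rule: the pair, UCP1, the reference genes, the 5 next genes by median share, the 5 most correlated, and of each list the 2 furthest from 0 in BAT for cold against AT, with any called where up to 5 were. One gene that this rule names is not reported here. Genes led by value between tissues, and the libraries named, were chosen after their values were seen. The members and lists were chosen with earlier results of these data known.

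Controls 1 and 3 were identified as those of the study because its normalized values were proportional to their counts. Tissues were paired by the lamb number in the labels. No 2 of the 435 library pairs held identical counts, and the lowest chi-square per degree of freedom within a group was 38.3, so each library counted as 1 sample. The count table held 2 gene names a second time. The RefSeq gene table belongs to another assembly, ARS-UI_Ramb_v3.0, and gave names only. Alternatives were other scalings, filters, tools, controls, the RNA integrity number as covariate, and each lamb left out.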

Additional observations from a re-analysis of the deposited data

Results flagged for a closer look

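In the outlier test of Dixon, 6 of 28 sets of 6 lambs had a value far from the rest. For independent sets of normal values, chance gives about 1 in 20. These sets share lambs and libraries and hold untransformed values, so the 6 cannot be read against that rate. The count ratio of the pair was 3.78 in thyroid of cold 4. Thyroid of AT 3 held 9500 counts of respiratory chain genes per 1000000 other counts, and thyroid of cold 1 had 6.94 of UCP1. The rRNA-named genes took 3.11% of the counts in BAT of cold 1, 1.10% in thyroid of cold 1 and 4.34% in thyroid of AT 2. Control 2, which entered the tests only as an alternative, held 74.7% of its counts in the pair in BAT and 27.8% in thyroid tissue, above the other controls in both.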

How the results depend on the processing

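Neither gene of the pair was called in BAT under any scaling, filter, tool or set of controls tried, or for cold against AT in thyroid tissue. Counting error was far below the spread between lambs, and 2 controls against 6 lambs allow no exact p under 0.0357. All values below are log2FC (LOC114112617 first) unless a share, a log2 ratio or r is named. Of 501 alternative values 409 kept direction and call. The cause of the changes was not tested.

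With all 3 controls, values became -0.45 and -0.37 (BAT cold against control), -0.50 and -0.56 (BAT AT), -0.59 and -0.85 (thyroid AT) and, for LOC114115287 in thyroid cold, -1.42 with a call. The differences in share became -2.57, -3.99, -5.69 and -2.35 percentage points (BAT cold, BAT AT, thyroid cold, thyroid AT). For thyroid cold against control, values were 0.17 and 0.13 with TMM, 0.17 and 0.14 with median-of-ratios, 0.28 and 0.24 with total counts and 0.30 and 0.26 with counts outside the pair, and the difference of log2 pair counts over the size factor was -0.12. For BAT AT against control they were -0.059 and -0.053 with the RNA integrity number as covariate, and -0.0094 for LOC114115287 with total counts. For BAT cold against AT, LOC114112617 had -0.0074 with total counts, -0.020 with counts outside the pair and -0.021 with only those groups. BAT against thyroid gave 2.79 and 3.06 with total counts, and 4.42 for LOC114115287 outside the pair.

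Leaving out 1 lamb (of all 3 controls where a control was left out) gave -0.85 to 0.22 and -0.74 to 0.35 for BAT cold against control, -0.87 to 0.20 and -0.90 to 0.19 for BAT AT against control, and -0.36 to 0.35 and -0.17 to 0.46 for BAT cold against AT. For thyroid cold against control it gave -1.69 to -0.015 and -1.82 to -0.064, with both genes called without control 1 or without control 3, when control 2 entered (adjusted p from 0.00942 to 0.0283 by edgeR), and for thyroid AT -0.98 to 0.71 and -1.26 to 0.50. Shares moved from -10.0 to 3.97 (BAT cold), -11.5 to 4.35 (BAT AT), -1.98 to 4.56 (BAT cold against AT), -9.93 to 1.78 (thyroid cold) and -6.59 to 5.27 (thyroid AT), and log2 ratios from -0.17 to 0.027 (BAT cold), -0.029 to 0.17 (BAT AT) and -0.030 to 0.085 (thyroid cold).

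The replicate block by lamb gave 0.59 and 0.64 for the tissue difference of cold against AT (adjusted p = 0.832 and 0.791 by edgeR) and changed no call of the pair. Over all genes it called 1 instead of 0 for that difference and 6775 instead of 6708 between the tissues. All 3 controls with the block, added after the data were seen, gave 0.58 and 0.63.

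With no lamb left out, the number of genes called ran from 104 (total counts) to 727 (all 3 controls), with 184 in the report, for BAT cold against control, 240 (total counts) to 1306 (DESeq2), with 907, for BAT AT against control, and 0 (all 3 controls) to 146 (DESeq2), with 42, for BAT cold against AT. In thyroid it ran from 682 (total counts) to 1566 (only the groups compared), with 1295, for cold against control, and 611 (outside the pair) to 1489 (DESeq2), with 1256, for AT against control. With 1 lamb left out, BAT cold against AT gave 0 (without cold 4 or AT 5, and with control 2 in place of another control) to 104 (without AT 6), BAT cold against control 103 (without cold 6) to 983 (without control 3) and BAT AT against control 669 (without AT 3) to 1372 (without control 1). Thyroid AT against control gave 999 (without AT 5) to 2060 (without AT 3), and thyroid cold against control 1021 (without cold 5) to 1744 (without AT 3). The share of calls that were higher was 46.7% in BAT cold against control and 67.3% to 71.1% under the 4 other scalings, 47.0% and 55.4% to 63.7% in BAT AT against control, 66.7% and, with total counts, 46.7% in BAT cold against AT, and 23.3% and 56.3% to 66.0% in thyroid AT against control.

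Over all 15 lambs, r in BAT was 0.62 for the respiratory chain genes, 0.57 for UCP1 and 0.58 for the rRNA-named genes, and in thyroid 0.69 for the rRNA-named genes (adjusted p = 0.0494 each), while r between the tissues was 0.56 (adjusted p = 0.0454), so these calls rest on control 2. It was -0.23 for the mitochondrial DNA and RNA genes in BAT, and -0.19 for the respiratory chain genes and 0.32 for UCP1 in thyroid. Over the size factor, r was 0.73 for the respiratory chain genes in BAT (adjusted p = 0.0190), and in thyroid 0.0011 for UCP1 and 0.25 for the mitochondrial DNA and RNA genes. Within cold lambs r was -0.26 for the respiratory chain genes and -0.039 for the mitochondrial DNA and RNA genes in BAT, 0.48 for UCP1 and 0.28 for the mitochondrial DNA and RNA genes in thyroid, and -0.39 for the ratio between tissues. Within AT lambs it was -0.035 for the rRNA-named genes in BAT.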
